A study of Mus musculus with 75 samples.

Results

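SCs failing to become HCs are adult mouse cochlear supporting cells (SCs) that received Atoh1 and Ikzf2 and did not turn into hair cells (HCs). They are 15 of the 75 single cells in the count matrix, taken by the group named in the sample labels, and they were compared with the 16 wild type cells labelled WT_P60 SC. The failing SCs came from Fgfr3-Atoh1-Ikzf2-DTR mice, which carry Fgfr3-iCreER, CAG-LSL-Atoh1, a Rosa26 CAG-LSL-Ikzf2 allele that also encodes Tdtomato, and a diphtheria toxin receptor in the Slc26a5 (Prestin) locus. These mice received tamoxifen at P30 and P31 to switch on both transcription factors and diphtheria toxin at P36 to kill the outer hair cells (OHCs), and their cells were hand picked at P60. The WT SCs came from Fgfr3-iCreER; Ai9 mice given tamoxifen at the same ages and were also picked at P60 as Tdtomato+ cells. Fgfr3-iCreER acts mainly in pillar cells and Deiters' cells, so other SC types are not described by these data. The labels give the strain of all cells as C57BL/6. Transgenes, toxin, OHC loss, the source of Tdtomato and the library series all differ between the groups and cannot be told apart.

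Atoh1 is the basic helix-loop-helix transcription factor that starts HC development, and Ikzf2 (Helios) is a zinc finger factor of OHCs. SCs surround and support the HCs. They keep their own fate partly through Notch signalling, in which ligands on a neighbouring cell activate Notch receptors and, through them, repressors of the Hes and Hey families. The mammalian cochlea does not replace lost HCs in the adult, which is why forced expression of HC transcription factors in SCs is studied.

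The question of the comparison was how the transcriptome of an SC that received both factors without conversion differed from that of a WT SC. Each library is 1 cell and no mouse is named for any cell, so each group counts as 1 sample. No test, standard error or p-value over cells is given. Levels are CPM (counts scaled to a common library total, with TMM factors), and a difference is described by the ratio of group means, by the lowest, median and highest cell, and by the share of the 240 pairs of a failing SC and a WT SC in which the failing SC was higher. A gene passed the size rule when its mean differed by more than 4-fold, with 1 CPM added to both means, and the failing SC lay on the same side in at least 90% of the pairs. This was asked of the 10766 genes with a mean of at least 5 CPM over the 31 cells. A gene counts as found in a cell at 1 CPM or more before TMM scaling.

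Failing SCs held 4264780 to 15549187 counts (median 6985617) and WT SCs held 5576508 to 8355421. The number of genes detected had a median of 6977 in failing SCs and 6872.5 in WT SCs. All WT SCs were of library series W. The failing SCs were of series A (cells 1 to 4), C (cells 5 to 14) and E (cell 15). Failing SCs 2 and 4 had 4859 and 4262 genes and 11.2% and 15.3% of counts from mitochondrial genes, against 1.30% to 2.59% in WT SCs. Failing SCs 6, 7 and 10 stood apart in another way. Their level of the SC calcium-binding protein gene S100a1 was 536, 102 and 1188 CPM, below the 6515 to 15555 CPM of WT SCs and the 4651 to 25572 CPM of the other 12 failing SCs. Means are over all cells of a group, those without the gene included. Where leaving out cells 2 and 4, cells 6, 7 and 10, or any single cell ended a call or moved a mean over 5 CPM of a named gene past the size rule by over 1.5 times, the value without them is given.

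The forced genes came first. Atoh1 (chr6:64729125-64731245, plus strand, GRCm38) was at 394, 2500.2 and 30966 CPM in the lowest, median and highest failing SC. It reached 5.54 CPM in the highest WT SC, and 14 of 16 WT SCs held under 1 CPM. No failing SC overlapped the WT SCs. The mean was 5688 CPM in failing SCs, or 3415 CPM without cells 6, 7 and 10, and 0.52 CPM in WT SCs. Ikzf2 (chr1:69531214-69687245, minus strand) was at 118, 537 and 2232 CPM in failing SCs and at 0, 14.7 and 153 CPM in WT SCs. Its mean was 18.9-fold higher (659 against 34.8 CPM), and the failing SC was higher in 99.6% of pairs. The counts do not separate the transgenes from the endogenous genes, and an annotated gene overlaps Ikzf2 exons on the opposite strand. Beside these values, nascent HCs of the same mouse line had mean levels of 5014 CPM Atoh1 and 316 CPM Ikzf2, and OHC-like cells of that line had 5746 and 416 CPM. The third marker, Fibin (chr2:110360917-110363183, minus strand), which encodes a secreted fin bud initiation factor homologue, went the other way. Fibin was at 62.4, 299 and 1041 CPM in WT SCs and had no count in any of the 15 failing SCs, at least 764-fold lower when 3 counts per library are taken as the floor. Nor was Fibin found in any nascent HC, OHC-like cell or P30 WT OHC. The levels of Atoh1, Ikzf2, Fibin and 5 other genes in each cell are plotted for the 5 groups of the study.

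**Figure D1:**
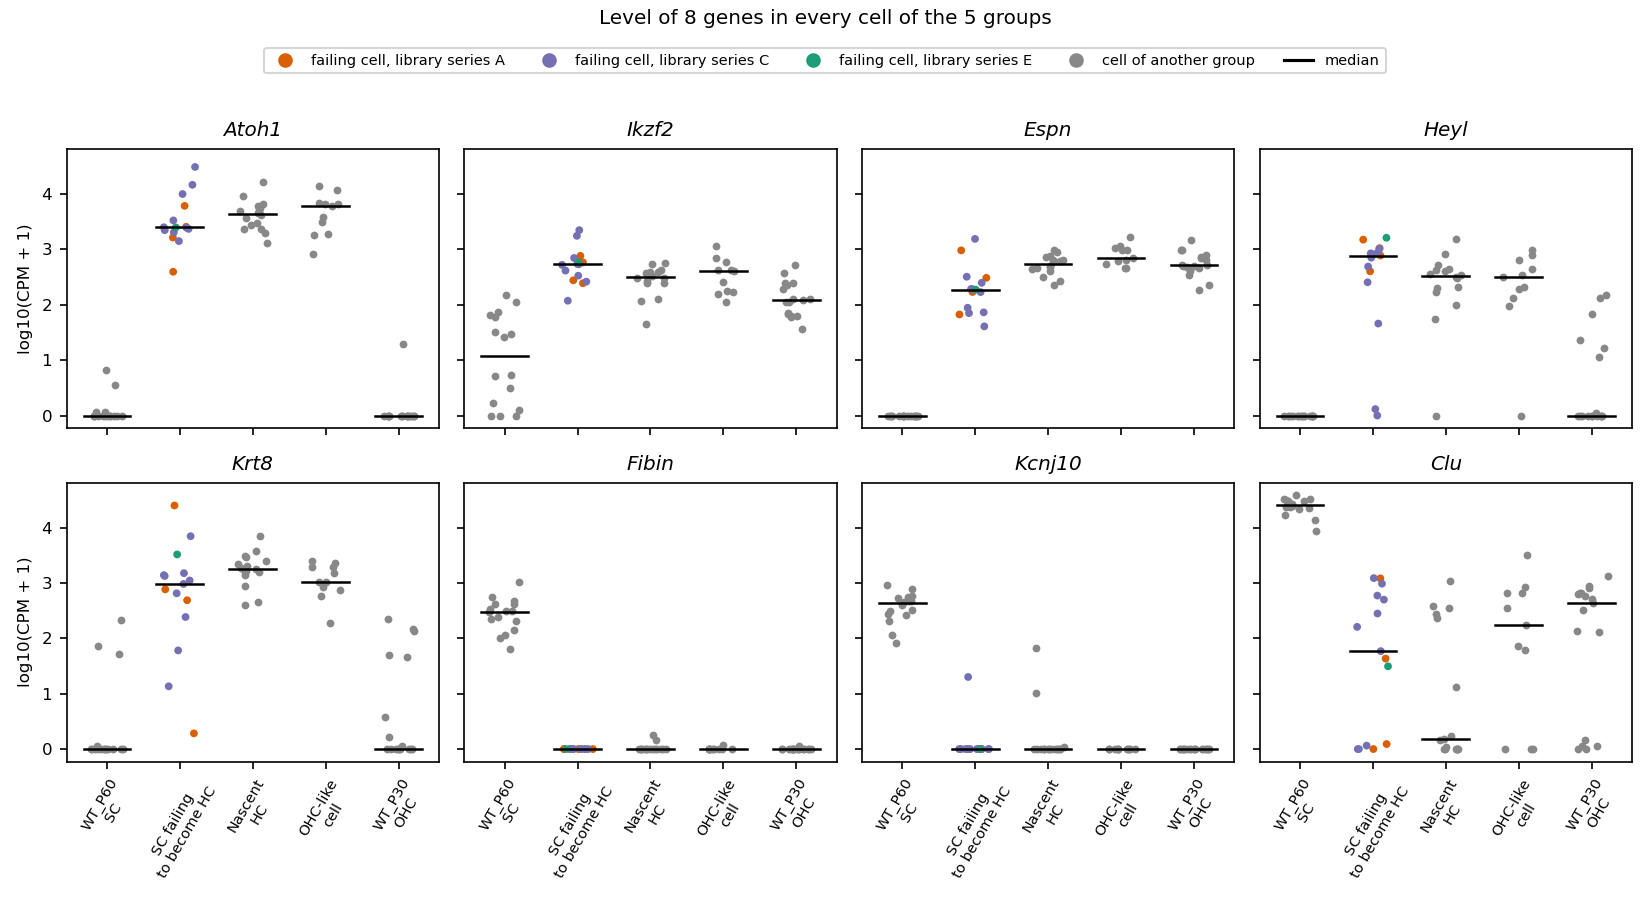
Level of 8 genes in each cell, as log10(CPM + 1) on the vertical axis, for the 5 groups along the horizontal axis. Each point is 1 cell, failing SCs are coloured by library series, and the bar is the group median. All 15 failing SCs lie above all 16 WT SCs for Atoh1 and Espn and below them for Fibin, Kcnj10 and Clu.

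Atoh1 was one of 72 genes that passed the size rule as higher in failing SCs, 0.669% of the 10766 genes, while 186 genes (1.73%) passed as lower. Of the higher genes 5 carry predicted names, and 19 of the lower genes do. The fold limit alone, without the limit on pairs, would take 1648 genes (15.3%) as higher and 768 (7.13%) as lower. The groups did not overlap at all in 5 higher genes (0.0464%), which were Atoh1, Espn, Cd63, Naca and Selenow, and in 51 lower genes (0.474%), of which 47 were past 4-fold. For Cd63 this rests on a few reads, since failing SCs 4, 9 and 14 held 0.574, 0.318 and 0.510 CPM. Those levels are under the 1 CPM at which a gene counts as found, while WT SCs had no Cd63 count. The higher genes had a median of mean levels of 232 CPM in failing SCs and 5.21 CPM in WT SCs, and the lower genes 17.6 and 255 CPM. For the higher and lower genes these medians were 196 and 14.2 CPM in nascent HCs. They were 154 and 15.7 CPM in OHC-like cells, and 16.3 and 8.67 CPM in P30 WT OHCs. As sets, neither was therefore particular to failing SCs. The median log2 difference over all tested genes was 0.29, so log2 differences are to be read against that shift. The scatter of group means shows both sets.

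**Figure D2:**
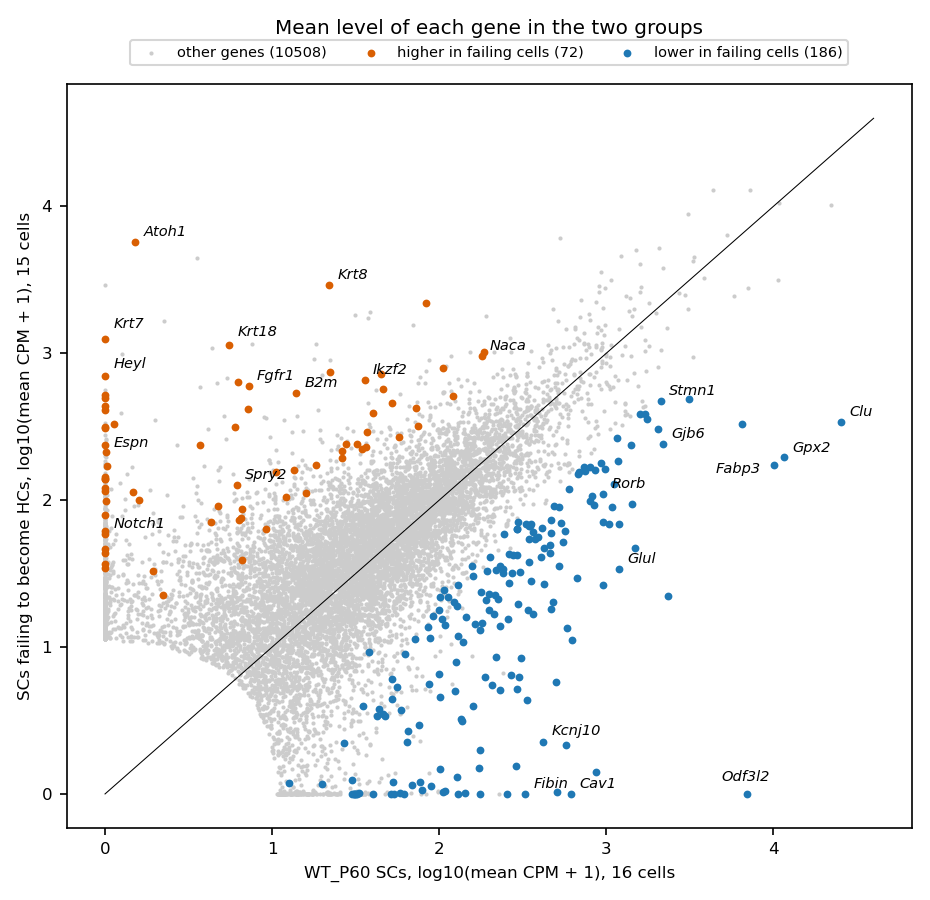
Mean level of the 10766 tested genes in the 16 WT SCs (horizontal) and the 15 failing SCs (vertical), both as log10(mean CPM + 1). Each point is 1 gene, orange marks the 72 genes that passed the size rule as higher, blue the 186 lower genes, and the line marks equal means. Many orange points sit at or near 0 on the WT axis and many blue points at or near 0 on the failing axis.

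The HC genes that define the failing group were low, as its definition requires. These cells were sorted after sequencing as Tdtomato+ cells without Myo7a, an unconventional myosin of HCs, and without Slc26a5, which encodes the OHC motor protein Prestin. Myo7a reached 27.9 CPM in the highest failing SC and was found in 3 of 15, against a mean of 504 CPM in nascent HCs. No WT SC had a Myo7a count. Slc26a5 was found in no failing SC and no WT SC, and its highest scaled level was 1.15 CPM, in failing SC 2, which also held the highest Myo7a level. Because these genes chose the cells, their levels are a description and not a finding.

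Espn was an HC gene at a clear level in cells that had failed to convert. Espn encodes espin, an actin-bundling protein of stereocilia. Failing SCs held 39.8, 187 and 1551 CPM (lowest, median and highest), all 15 were above all 16 WT SCs, and WT SCs had no Espn count. The mean was at least 743-fold higher. Espn was found in all 15 failing SCs and in none of the 16 WT SCs. Its mean was 309 CPM in failing SCs, 562 CPM in nascent HCs, 841 CPM in OHC-like cells and 612 CPM in P30 WT OHCs. Espn lies on chr4:152120331-152152371 (minus strand). RefSeq gives several start sites for it on GRCm38.p6, and the E-box CAGCTG, a hexamer that basic helix-loop-helix factors such as Atoh1 can bind and that reads the same on both strands, was found in the windows of the outermost and the innermost start, from 250 bases before to 50 after it, and not in the window of the start between them. They are printed with the Fibin window, which has no CAGCTG, because Espn and Fibin separate the groups without overlap in opposite directions. Capitals mark CAGCTG.
Espn outermost start, chr4:152152340-152152639, minus strand: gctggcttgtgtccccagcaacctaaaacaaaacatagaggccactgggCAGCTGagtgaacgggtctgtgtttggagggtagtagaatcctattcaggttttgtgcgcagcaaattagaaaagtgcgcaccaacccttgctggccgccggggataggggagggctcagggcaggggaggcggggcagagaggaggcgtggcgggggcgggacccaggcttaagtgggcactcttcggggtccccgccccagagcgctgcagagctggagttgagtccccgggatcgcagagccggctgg
Espn innermost start, chr4:152128876-152129175, minus strand: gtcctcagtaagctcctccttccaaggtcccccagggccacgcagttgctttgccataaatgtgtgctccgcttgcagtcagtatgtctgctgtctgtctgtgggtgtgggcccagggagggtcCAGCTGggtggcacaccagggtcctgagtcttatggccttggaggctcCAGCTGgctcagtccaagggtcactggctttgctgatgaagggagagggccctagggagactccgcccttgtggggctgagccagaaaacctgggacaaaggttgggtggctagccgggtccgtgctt
Fibin start, chr2:110362944-110363243, minus strand: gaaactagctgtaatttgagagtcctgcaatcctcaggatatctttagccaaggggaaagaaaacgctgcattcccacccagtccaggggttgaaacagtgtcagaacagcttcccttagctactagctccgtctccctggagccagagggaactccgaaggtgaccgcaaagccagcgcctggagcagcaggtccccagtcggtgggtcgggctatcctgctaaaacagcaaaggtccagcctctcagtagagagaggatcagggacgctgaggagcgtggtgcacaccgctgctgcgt
These are matches of letters, and no binding data were used. CAGCTG was in 17.6% of the 68 promoter windows of higher genes (51 of the 72 genes had an entry), 16.9% of the 201 windows of lower genes (147 of 186), 14.5% of the 10705 windows of all tested genes and 16.3% of all 32851 windows. CAGATG and GGGAA were also scored, on either strand. In the same order of window sets, CAGATG was in 10.3%, 12.9%, 10.9% and 17.2%. GGGAA was in 66.2%, 64.7%, 64.4% and 62.7%.

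Beyond Espn, no listed HC gene passed the size rule as higher over all cells, and many were at low levels or patchy. Of 20 HC transcription factors and regulators listed, 9 reached the level needed for the size rule and none passed it. Past 4-fold upward were 4 of the 9 (Gfi1, Barhl1, Insm1 and Dach1), beside 15.3% of all tested genes. Pou4f3, the POU factor that keeps HCs alive, had no count in any failing or WT SC, against mean levels of 35.1 CPM in nascent HCs and 601 CPM in P30 WT OHCs. Gfi1, a zinc finger repressor downstream of it, was found in 2 failing SCs, with 357 CPM in the highest, and in no WT SC. Barhl1, a homeobox gene of HCs, was found in 4 failing SCs and reached 132 CPM, and Lhx3, a LIM homeobox gene, in 2 and reached 145 CPM. Neither had a count in WT SCs. Of 32 HC structural and functional genes, 12 were testable, Espn was higher and Cd164l2 lower. Past 4-fold upward were 5 of the 12, which were Espn, Cib2, Calb2, Anxa4 and Lmo7. Lmo7 had no count in WT SCs and reached 207 CPM in failing SC 13. Without failing SCs 6, 7 and 10, Lmo7 also passed the size rule as higher. Anxa4, an annexin, was at 0.461 to 3174 CPM in failing SCs and at 0 to 227 CPM in WT SCs. Cd164l2, a sialomucin-like gene, was at 19.3 CPM on average in failing SCs (8.94 CPM without cell 9), 478 CPM in WT SCs and 1220.5 CPM in P30 WT OHCs, and an annotated gene overlaps it on the opposite strand. Calb2, the calcium buffer calretinin, reached 324 CPM in 1 failing SC and was found in 5, beside mean levels of 2082 CPM in nascent HCs and 0 in WT SCs. Cib2, a mechanotransduction partner, had a mean of 819 CPM in failing SCs against 109 CPM in WT SCs, and the failing SC was higher in 72.7% of pairs. The number of structural genes found per cell had a median of 9 of 32 in failing SCs, 8 in WT SCs, 18 in nascent HCs and 26 in P30 WT OHCs.

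Heyl and Notch1 were the Notch pathway genes that passed the size rule, both as higher. Of 21 listed genes, 15 were testable, 8 were past 4-fold upward (15.3% of all tested genes were) and none downward. The size rule was passed by 2 of them (0.669% of all tested genes passed as higher). The median log2 difference of the list was 3.57 beside 0.29 for all tested genes, though a gene that reaches the level needed in failing SCs alone is bound to differ. Heyl, a basic helix-loop-helix repressor induced by Notch, was at 0, 775 and 1627 CPM in failing SCs (lowest, median and highest). No WT SC had a Heyl count, so its mean of 695 CPM was at least 1674-fold higher. Heyl was found in 13 of 15 failing SCs, and the exceptions were cells 6 and 10. Notch1, a receptor, was at 0, 10.4 and 568 CPM with no count in WT SCs, and its mean of 58 CPM dropped to 21.6 CPM without cell 2. Its 90% of pairs was at the limit, and Notch1 no longer passed the size rule (89.3% of pairs) when any 1 of 12 of the 15 failing SCs was left out. Annotated exons overlap Notch1 on the opposite strand.

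Other Notch effectors and ligands were uneven among failing SCs. Hes1, a Notch effector that SCs use, had a mean of 188 CPM in failing SCs and 84 CPM in WT SCs, but the failing mean was 88.5 CPM without cells 6, 7 and 10, and the failing median was lower than that of WT SCs (37.5 against 64.6 CPM). Hes5, another effector, was found in 1 failing SC and in no WT SC. Hey1 had a mean of 78.9 CPM in failing SCs and 5.74 CPM in WT SCs, with 67.5% of pairs higher. Hey2 was found in 5 failing SCs and in no WT SC. Among ligands, Jag1, which SCs express, had a mean of 183 CPM against 102 CPM, while Jag2 and Dll1, ligands of HCs, were found in 5 and 2 failing SCs and in no WT SC. Jag2 reached 889.8 CPM in its highest failing SC, cell 2. Mean Jag2 was 78.7 CPM in failing SCs, 20.8 CPM without cell 2, and 289 CPM in nascent HCs, and mean Dll1 was 4.18 and 68.7 CPM. Hes6, an inhibitor of Hes1 activity expressed in differentiating HCs, and Mfng, a fringe glycosyltransferase that modifies Notch, fell short of the limit on pairs at 85.8% and 83.3%. Without failing SCs 6, 7 and 10 both passed it at 91.7%. The number of Notch pathway genes found per cell was 4 to 16 in failing SCs (median 10) and 3 to 7 in WT SCs (median 6). It stayed at medians of 10 and 6 when every library was thinned to 4264780 counts.

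Of the 12 higher genes with the largest log2 difference, Atoh1, Espn and Heyl are described above. Krt7, a keratin of simple epithelia, had a mean of 1257 CPM in failing SCs and no count in WT SCs. It was found in 8 of 15 failing SCs, reached 7669.9 CPM in cell 15, and was at the limit with 90% of pairs. It no longer passed without cells 2 and 4 (88.5% of pairs), without cells 6, 7 and 10 (87.5%), or without any 1 of 12 of the failing SCs (89.3%), and its mean was 799 CPM without cell 15. Krt8 and Krt18, the paired keratins of simple epithelia, were also higher. Krt8 was at 0.922, 960.0 and 25109 CPM in failing SCs and reached 211 CPM in WT SCs, and its mean was 140.2-fold higher. Without cell 3, its highest cell, the failing mean of Krt8 was 1342 CPM in place of 2926 CPM. Without WT cell 16 the WT mean was 8.2 CPM in place of 20.9 CPM. Krt18 was at 1.38, 369 and 10904 CPM and was found in all 15 failing SCs and 1 WT SC, with a 253-fold higher mean, and its failing mean of 1145 CPM was 448 CPM without cell 3. An annotated gene overlaps Krt7 on the opposite strand. Krt8, Krt18 and the other genes outside the naming rule were chosen after their values were seen.

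The remaining 8 leading genes had varied functions. Cd63, a tetraspanin of late endosomes and exosomes, was at 0.318, 428 and 1833 CPM in failing SCs, had no count in WT SCs, and had a mean of 925 CPM in nascent HCs and 0.0159 CPM in P30 WT OHCs. Rab3b, a GTPase of regulated exocytosis, was found in 11 failing SCs with a group mean of 409 CPM, and Osbpl1a, an oxysterol-binding protein, in 12 with a group mean of 315 CPM. Slc27a2, a fatty acid transport protein, was found in 12 with a group mean of 211 CPM. None of these 3 was found in a WT SC, and an annotated gene overlaps each on the opposite strand. Gldn, encoding gliomedin, an extracellular protein of the nodes of Ranvier, was found in 10 failing SCs and reached 3102 CPM, with a group mean of 519 CPM against 35.4 CPM in nascent HCs and 33.6 CPM in OHC-like cells. Gldn was also at 90% of pairs and did not pass (89.3%) without any 1 of 12 of the failing SCs, and its mean was 335 CPM without cell 13. Ppp1r17, a phosphatase inhibitor, was found in 11 with a group mean of 438 CPM, beside 1463 CPM in nascent HCs. Dmpk, a serine/threonine kinase, had a mean of 327 CPM over the 15 failing SCs and was found in 12 of them, and 1 WT SC held 2.01 CPM. Timp2, an inhibitor of matrix metalloproteinases, was found in 13 with a group mean of 236 CPM and in no WT SC. Apart from Atoh1 and Espn, each of the 12 was under 1 CPM in at least 2 failing SCs, which the heat map of named genes shows cell by cell.

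**Figure D3:**
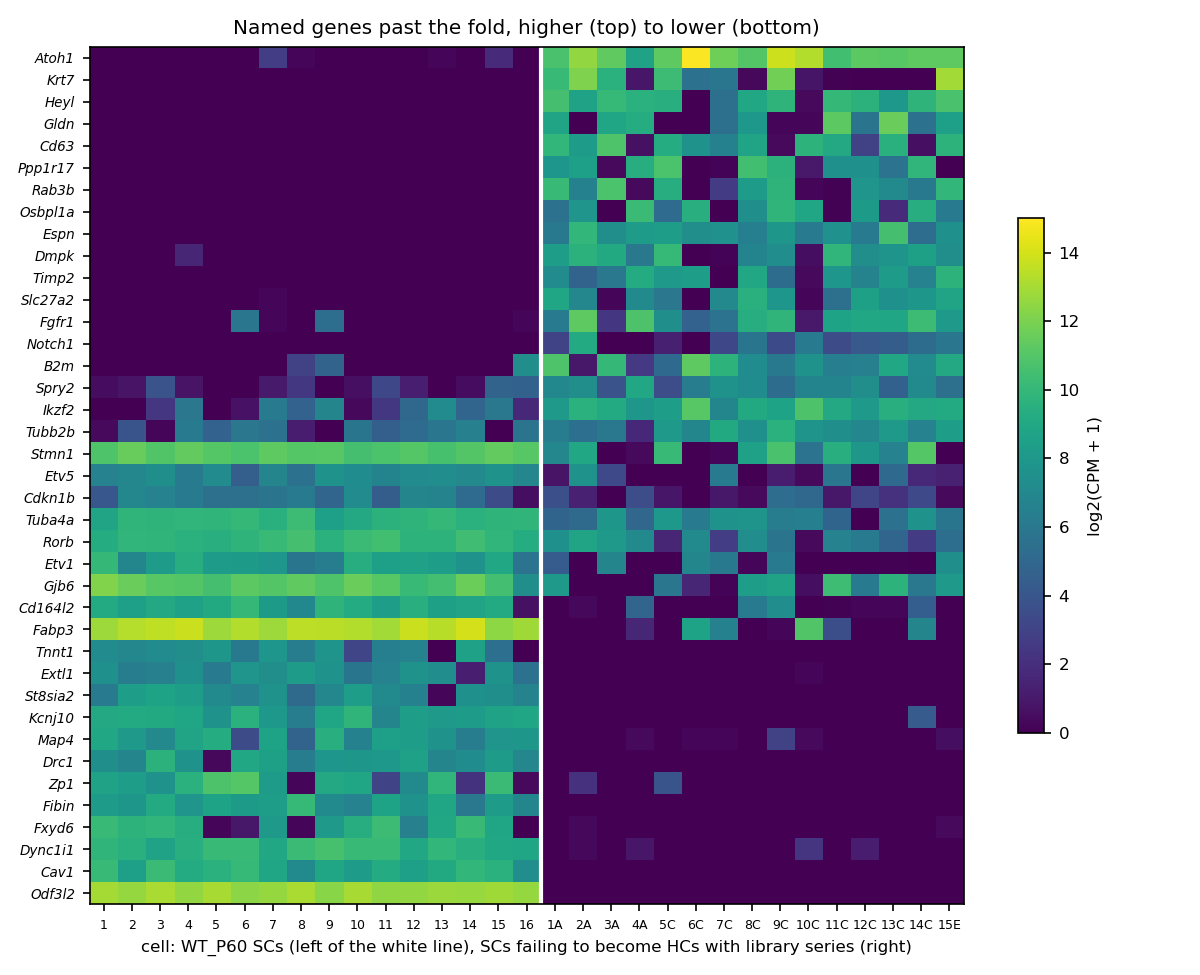
Level of the named genes that passed the size rule, as log2(CPM + 1) by colour, in each of the 31 cells. Rows are genes, columns are cells, WT SCs are left of the white line and failing SCs right of it with the letter of their library series. Most of the higher genes are dark in WT SCs, and Heyl is at or near 0 in failing SCs 6 and 10.

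The FGF list differed in both directions. Of its 13 genes, 11 were testable, 2 passed as higher and 2 as lower, and the median log2 difference was -0.12. Over all tested genes the shares passing were 0.669% as higher and 1.73% as lower. Fgfr1, an FGF receptor, was at 1.08, 419 and 2438 CPM in failing SCs and reached 58.2 CPM in WT SCs, a 95.5-fold higher mean (596 against 6.24 CPM, and 365 CPM without cells 2 and 4). The WT mean was 2.78 CPM without WT cell 6 and 3.9 CPM without WT cell 9. Annotated exons overlap Fgfr1 on the opposite strand. Spry2, a feedback inhibitor of receptor tyrosine kinases, was at 10.7, 109.5 and 492 CPM against 0, 0.711 and 26 CPM, a 24.6-fold higher mean. Etv1 and Etv5, ETS factors that FGF signalling induces, were lower. Etv1 had a mean of 37.1 CPM in failing SCs and 345 CPM in WT SCs, and Etv5 had 25.6 and 128 CPM, with 12.5 CPM in failing SCs without cell 2. Etv5 did not pass with 10 CPM added to both means. Fgfr3, whose promoter drives the Cre, was in 13 of 15 failing SCs with a mean of 361 CPM against 742 CPM, which did not pass the fold. Fgfr2 was found in 1 failing SC, cell 6, at 1020.1 CPM, and in no WT SC.

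The 12 lower genes with the largest log2 difference, Fibin among them, were each found in at least 12 of the 16 WT SCs. Odf3l2, an outer dense fibre family member, was at 5059, 6523 and 8877 CPM in WT SCs and had no count in any failing SC, so it was at least 16190.1-fold lower. Its mean was 159 CPM in nascent HCs, 374 CPM in OHC-like cells and 0 in P30 WT OHCs. Cav1, the main caveolin of caveolae, had 142, 579 and 1202 CPM in WT SCs and no count in failing SCs, and its partner Cav2 was found in 7 failing SCs and had means of 68.2 CPM in failing SCs (36.1 CPM without cells 6, 7 and 10) and 1197 CPM in WT SCs. Kcnj10, the Kir4.1 potassium channel that SCs use in potassium recycling, had 82.4, 428 and 907 CPM in WT SCs, while it was found in 1 failing SC, at 19 CPM. Fxyd6, a regulator of the sodium pump, had a mean of 508 CPM in WT SCs and 0.291 CPM in the highest failing SC.

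Cytoskeletal and extracellular genes stood among the 12 lower genes with the largest difference as well. Dync1i1, a dynein intermediate chain, had a mean of 862 CPM in WT SCs and 0.414 CPM in failing SCs. Map4, a microtubule-associated protein, had 287 and 0.541 CPM. Drc1, a component of the dynein regulatory complex of motile cilia, had 254 CPM in WT SCs and no count in failing SCs, and Tnnt1, the slow skeletal troponin T, had 128 CPM and none. Zp1, a zona pellucida glycoprotein, had 574 and 1.14 CPM. St8sia2, a polysialyltransferase, and Extl1, an exostosin-like glycosyltransferase, had means of 174 and 141 CPM in WT SCs and were found in no failing SC.

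Genes at the top of the WT SC transcriptome were lower too. Clu, which encodes the secreted chaperone clusterin, was at 8772, 25921 and 38505 CPM in WT SCs and at 0, 57.7 and 1224 CPM in failing SCs, with a mean 75.4-fold lower and no overlap. Gpx2, a glutathione peroxidase, was at 4899, 10178 and 27325 CPM in WT SCs and at 0, 11.2 and 1561 CPM in failing SCs. Clu was also low in the other groups, at means of 146 CPM in nascent HCs, 544 CPM in OHC-like cells and 418 CPM in P30 WT OHCs. Gpx2 had mean levels there of 6502, 5749 and 3626 CPM, beside 197 CPM in failing SCs (99.7 CPM without cell 13). Fabp3, a fatty acid binding protein, had a mean of 10146 CPM in WT SCs and 173 CPM in failing SCs. The latter was 45.9 CPM without cell 10 and 10.6 CPM without cells 6, 7 and 10. Reads of Fabp3 can be shared with its pseudogene copy, and annotated genes overlap it on the opposite strand. Glul, glutamine synthetase, had means of 1196 CPM in WT SCs and 32.8 CPM in failing SCs (20.2 CPM without cells 2 and 4).

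Of 28 listed SC identity genes, 26 were testable, none passed as higher and 6 as lower, and the median log2 difference was -0.01. Of all tested genes, 1.73% passed as lower. The 6 are Fibin, Kcnj10 and Fabp3, given above, with Gjb6, Rorb and Cdkn1b. Gjb6, the gap junction protein connexin 30 of the SC network, was at 168, 2106 and 4656 CPM in WT SCs and 0, 62.6 and 1299 CPM in failing SCs, a mean 9.16-fold lower. Rorb, a nuclear receptor, was at 613, 875 and 1535 CPM in WT SCs and 0.307, 75 and 431 CPM in failing SCs, with no overlap. Cdkn1b, the p27 inhibitor that holds SCs out of the cell cycle, had means of 61.6 CPM in WT SCs and 7.99 CPM in failing SCs, and did not pass with 10 CPM added to both means. Another 5 members were past 4-fold upward without reaching 90% of pairs (Slc1a3, Cryab, Epyc, Lgr5 and Lgr6), and 15.3% of all tested genes were past 4-fold upward. Slc1a3, the glutamate transporter GLAST, reached 876 CPM and was found in 7 failing SCs and in no WT SC.

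The other SC genes named did not pass the size rule. Sox2, the SC and progenitor HMG box factor, was at 0, 58.5 and 205 CPM in failing SCs and at 0, 41.5 and 129.9 CPM in WT SCs, and was found in 13 cells of each group. Sox9, a related factor, had a mean of 486 CPM against 149.8 CPM. Sox10, another SC factor, had 55.9 against 126 CPM and was found in 7 of 15 failing SCs (46.7%) and 15 of 16 WT SCs (93.8%). Prox1, a homeobox factor of pillar and Deiters' cells, was found in 4 failing SCs and 6 WT SCs. Bace2, a protease of SCs, had means of 1455 and 1189 CPM, although its median was lower in failing SCs (626 against 1137 CPM). S100a1 had means of 10603 and 10777 CPM, and Cnn3, an actin-binding calponin, had 991 and 996 CPM. The mean of Ceacam16, a tectorial membrane protein, rested on cell 11 at 15562 CPM, since the median was 37.2 CPM in failing SCs and 1536 CPM in WT SCs. Without cell 11 the failing mean was 87.3 CPM and Ceacam16 passed as lower. Gjb2, connexin 26, was within the fold, with means of 197 and 683 CPM, and the failing SC was higher in 7.92% of pairs. Without cell 13 its failing mean was 156 CPM and it passed as lower. Lgr5, a Wnt pathway receptor of progenitor-like SCs, was found in 12 failing SCs and 1 WT SC, with group means of 675 and 4.36 CPM. The failing mean was 370.1 CPM without cells 2 and 4. Lgr5 was higher in 87.9% of pairs and passed the size rule without cells 6, 7 and 10 (90.1%) or without any 1 of cells 3, 6 and 13 (91.1%). Failing SCs held 10 to 21 of the 28 SC identity genes (median 16) and WT SCs 17 to 22 (median 19), beside a median of 13 in nascent HCs and 4 in P30 WT OHCs.

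**Figure D4:**
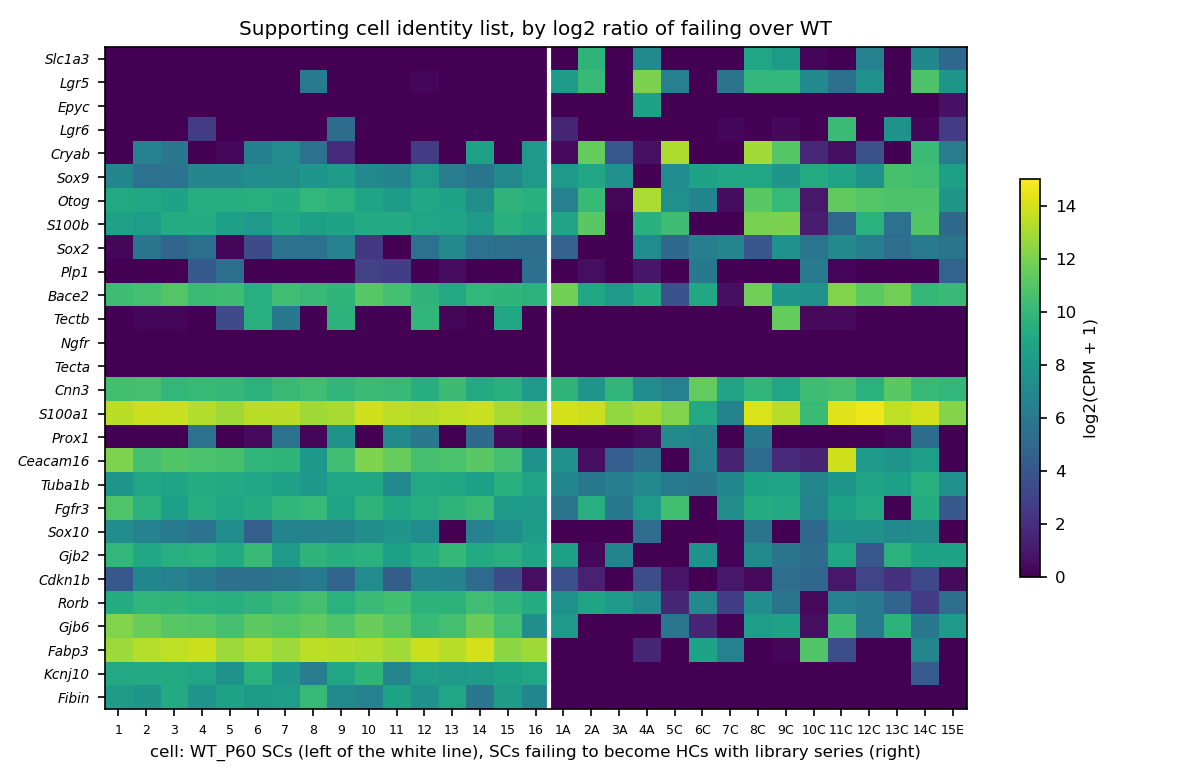
Level of the 28 listed SC identity genes, as log2(CPM + 1) by colour, in each of the 31 cells. Rows are genes, columns are cells, WT SCs left of the white line and failing SCs right of it. Fibin, Kcnj10 and Fabp3 are bright in all WT SCs and dark in most failing SCs, while Sox2 and Cnn3 are at similar levels on both sides.

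The lists for stress, injury and growth had few or no members past the size rule. None of 17 Id and BMP genes passed, although 7 of 14 testable members were past 4-fold upward, beside 15.3% of all tested genes. Id1, a dominant inhibitor of basic helix-loop-helix factors including Atoh1, had a mean of 625 CPM in failing SCs and 73.9 CPM in WT SCs, with 80.8% of pairs higher. Without cells 6, 7 and 10 this share was 96.4%, and Id1 passed. Id2 had means of 2388 and 1378 CPM, and Id3 had 411 and 198 CPM. None of 21 immediate early genes passed over all cells, and 8 of 20 testable members were past 4-fold upward, beside the same 15.3%. Gadd45a had means of 163 CPM in failing SCs and 15.1 CPM in WT SCs. It passed as higher without failing SCs 2 and 4, and also without any 1 of failing SCs 4, 12 and 14 or WT cell 11. Fos and Jun, which handling can induce, were at means of 2496 and 1232 CPM in failing SCs and 2956 and 1714 CPM in WT SCs. The failing mean of Fos was 1539 CPM without cell 9. Atf3, a stress-induced factor, had a higher mean in failing SCs (541 against 105 CPM) but was found in 4 failing SCs and 12 WT SCs, and its failing mean was 232 CPM without cell 3. None of 15 unfolded protein and integrated stress response genes, 15 injury genes or 14 cell death genes passed over all cells. Herpud1, of the first of these lists, had a mean of 374 CPM in failing SCs and was at 384 to 2213 CPM in WT SCs. Without any 1 of failing SCs 8, 9 and 12 it passed as lower. Past 4-fold upward were 4 of 7 testable injury genes (Cd44, Cxcl10, Tnfrsf12a and Timp1) and 2 of 8 cell death genes. Their lists had median log2 differences of 2.94 and 1.40, beside 0.29 for all tested genes. The mean of Cd44 in failing SCs, 29.8 CPM, was 1.34 CPM without cell 9. Failing and WT SCs both had a median of 3 injury genes found per cell.

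In the interferon and antigen presentation list 1 of 18 genes passed, where 0.669% of all tested genes passed as higher and 1.73% as lower. B2m, the light chain of class I MHC, was at 0.922, 153 and 2519 CPM in failing SCs and reached 172 CPM in WT SCs, a 41.7-fold higher mean. The WT mean of 12.9 CPM was 2.23 CPM without WT cell 16. Ifi27, with means of 7.69 CPM in failing SCs and 155 CPM in WT SCs, did not pass over all cells. Without any 1 of failing SCs 3 and 11 or WT cells 7 and 13 it passed as lower. In the cell cycle list 1 of 16 passed, the inhibitor Cdkn1b given above. Among 12 tubulins Tubb2b, a neuronal beta tubulin, was 6.65-fold higher (221 against 33.3 CPM) and Tuba4a, an alpha tubulin, 7.75-fold lower (105 against 816 CPM). Annotated exons overlap Tuba4a on the opposite strand. Tubb2b fell below the limit on pairs without cells 6, 7 and 10, at 89.1%. In the neuronal list 1 of 20 genes passed, Stmn1, a tubulin-binding stathmin, which was lower at 469 against 2122 CPM and did not pass without those 3 cells. The stacked bars give the counts for every list.

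**Figure D5:**
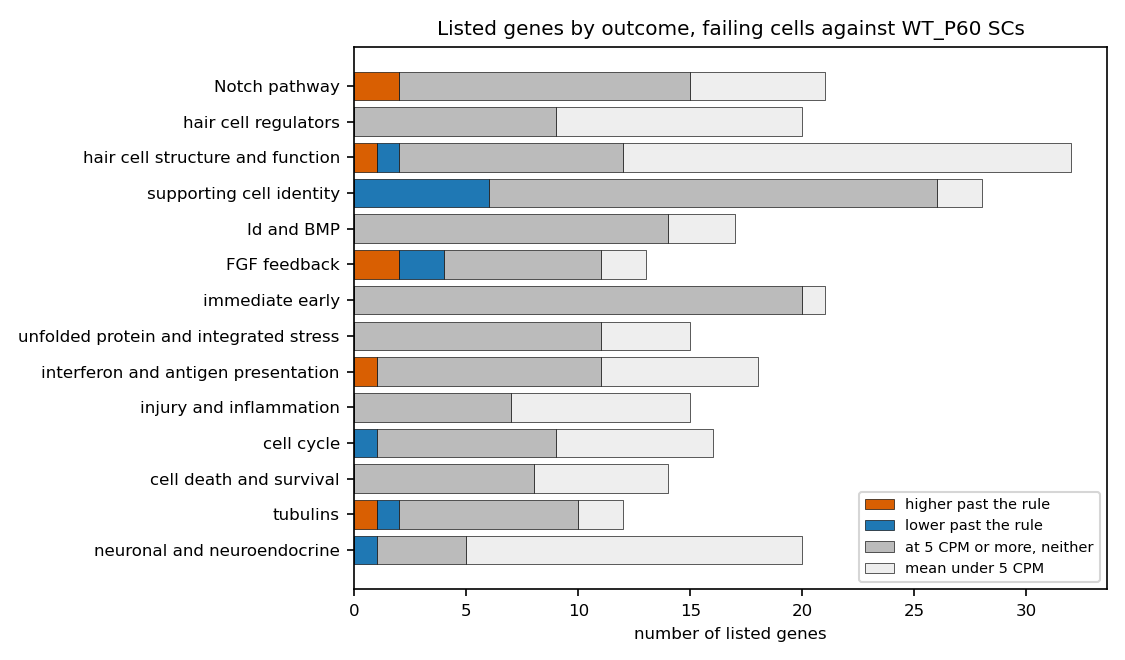
Number of genes (horizontal) in each of the 14 gene lists (vertical) that passed the size rule as higher or lower in failing SCs, that reached a mean of 5 CPM without passing it, or that stayed under 5 CPM. The SC identity list has the most lower members, 6 of 28, and the Notch list has 2 higher members of 21. Of all tested genes, 0.669% passed as higher and 1.73% as lower.

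Of genes outside the lists, Naca and Selenow separated the groups without overlap. Naca, a subunit of the nascent polypeptide-associated complex, was at 433 to 2173 CPM in failing SCs and at 51.1 to 374 CPM in WT SCs. Selenow, a selenoprotein, was at 198 to 1429 CPM against 0 to 96.7 CPM. Ldhb, the heart-type lactate dehydrogenase subunit, was at 103, 1843 and 4822 CPM in failing SCs against 0, 32.1 and 454 CPM. Both Naca and Selenow have processed copies in the genome that could take or lend reads.

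Most of these genes were past the fold in each library series of failing SCs. Of the 72 higher genes, 71 were past 4-fold in series A against WT SCs, 70 in series C, 69 in both and 62 in the single cell of series E. Of the 186 lower genes the counts were 168, 179, 161 and 168. Under the full size rule, Gldn, Osbpl1a, Notch1, Rorb, Etv5 and Tubb2b did not pass in series A alone, and Krt7, Cdkn1b and Stmn1 did not pass in series C alone. Each failing SC lay above all WT SCs in 41 to 62 of the 72 higher genes (median 54), with the fewest in cell 6, and below all of them in 107 to 138 of the 186 lower genes (median 121). These counts describe how far single cells carry the pattern, since the same cells chose the genes. As whole transcriptomes, failing SCs had mean Spearman correlations across genes of 0.246 to 0.483 to the WT SCs and 0.312 to 0.516 to the other failing SCs, where WT SCs among themselves had 0.498 to 0.576. Of the 15 failing SCs, 14 were closer to the other failing SCs and 1, cell 12, was closer to WT SCs. Genes within a cell are not independent.

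Failing SCs were not alike among themselves. Cell 6 had the highest levels of both forced genes, 30966 CPM Atoh1 and 2232 CPM Ikzf2, yet no Heyl count and 168.7 CPM Espn, below the median. Cell 2 had the highest levels of Notch1 (568 CPM), Jag2 (889.8 CPM), Fgfr1 (2438 CPM), Hes6 (3249 CPM) and Calb2 (324 CPM), and it was one of the cells with few genes and a high mitochondrial share. Cell 7 held 357 CPM Gfi1 and 145 CPM Lhx3. Across the 15 failing SCs the Spearman correlation was 0.45 between Atoh1 and Ikzf2, 0.02 between Atoh1 and Espn and -0.42 between Atoh1 and Heyl. The number of HC list genes found per cell had a correlation of -0.13 with Atoh1, -0.61 with Ikzf2 and 0.56 with the number of genes detected. These are descriptions over cells that share library series and scaling, with no mouse known for any of them.

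Markers of cell types were read in the same cells. Of 6 pillar and Deiters' cell markers (Sox2, Sox10, Fgfr3, Bace2, Ceacam16, Fibin), failing SCs held all but Fibin, at a summed level of 281 to 20784.9 CPM (median 1228), and WT SCs held all 6 at 1753 to 8017 CPM (median 3789). Of the OHC markers, Slc26a5 and Tmc1 were found in no failing SC and no WT SC, and Ocm in 1 failing SC and no WT SC. Of 5 fibroblast markers 3 were found in failing SCs and 1 in WT SCs. Dcn and Lum were found in 4 failing SCs each and in no WT SC, the collagens Col1a2 and Col3a1 in none, and the list summed to 0 to 2025 CPM in failing SCs and 0 to 10.3 CPM in WT SCs. Of 7 macrophage markers, Cd68 was found in 9 failing SCs and 7 WT SCs, and Csf1r in 1 failing SC and no WT SC. C1qa, C1qb, C1qc, Cx3cr1 and Ptprc were found in none, and the sums reached 293 CPM in failing SCs and 48.1 CPM in WT SCs. Of 4 endothelial markers, Pecam1 was found in 9 WT SCs and in no failing SC, and Cdh5 in none, with sums up to 6.9 CPM in failing SCs and 292 CPM in WT SCs. The spiral ganglion neuron list summed to as much as 1046 CPM in a failing SC and 29.9 CPM in a WT SC. Its member Snap25 alone was at 1029.8 CPM in failing SC 7. Snap25 was also found in 10 of 16 nascent HCs, 9 of 11 OHC-like cells and 16 of 17 P30 WT OHCs. Lists of inner HCs, blood, Schwann cells, stria vascularis and mesenchyme stayed at or under 90.1 CPM in both groups. The part of RNA from other cells in the differences was not tested.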

How the data were processed

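Single cells were made into libraries with Smart-Seq HT, without molecular identifiers. The authors trimmed the reads (Trimmomatic 0.39, FastQC 0.11.9), aligned them with HISAT2 2.1.0 to GRCm38/mm10 and counted them per gene with HTSeq 0.10.0, and the deposited matrix holds raw counts of 75 cells. The strand setting is not given in the sources used here, so a gene and an overlapping gene on the opposite strand cannot be told apart. The WPRE row (0.025% of counts) was left out. CPM used TMM factors over all 75 cells (edgeR 4.0.16, R 4.3.3). Values were summarised in Python 3.11.15 with pandas 2.3.3, and the size rule was tested on simulated data. All columns matched a sample.

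With 1 cell per sample and no mouse named, no test was run across cells. The members and lists were chosen with earlier results of these data known. The genes named by rule were Atoh1, Ikzf2, Fibin, Myo7a, Slc26a5, the 12 in each direction with the largest log2 difference among those past the rule (predicted names left out), list members past the rule, 8 SC genes, and 7 Notch effectors and ligands. The other genes named were chosen after their values were seen. Alternatives were scaling by library size, DESeq2 1.42.0 factors or TMMwsp, other pseudocounts, filters, fold and pair limits, medians, summed counts, thinning, single library series and leaving out cells. Gene positions are GENCODE M21 annotation on GRCm38, and promoter sequences are RefSeq GRCm38.p6. No library was a copy of another by its counts. 1 OHC marker is not reported here.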

Additional observations from a re-analysis of the deposited data

How the results depend on the processing

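The number of higher genes was 72 and of lower genes 186. Other scalings, pseudocounts of 0.1 or 10 CPM, other filters, a 2-fold limit, medians, summed counts, thinning and leaving out failing SCs 2 and 4 kept each count within 1.5 times, at 61 to 89 higher and 169 to 237 lower genes. Demanding no overlap of cells left 5 higher and 47 lower genes, and the fold limit alone took 1648 and 768. Series A alone, with 4 cells, gave 156 higher and 342 lower genes, of which 48 and 157 were among the 72 and 186. Series C alone gave 117 higher genes, 62 of them among the 72. Without failing SCs 6, 7 and 10, an alternative chosen after seeing the data, 110 genes were higher, 63 of them among the 72. Leaving out each of the 31 cells in turn, also chosen after seeing the data, gave 57 to 82 higher and 182 to 197 lower genes. The median log2 difference of all tested genes was 0.29 with TMM factors, 0.17 by library size, 0 for medians over cells and -0.13 in series A. With a pseudocount of 10 CPM, Cdkn1b and Etv5 did not pass. With medians the sign turned for Bace2, Hes1, Atf3, Gata3 and Dusp6, none of which passed the size rule. S100a1, Cnn3, Fos and Prox1, which had close to equal means, turned sign under at least 1 choice of cells. Level differences of genes at 0 in a group are bounds set by depth, since 3 counts were 0.429 CPM on average in a failing SC and 0.415 CPM in a WT SC. No paired analysis was possible because the cell numbers in the 2 groups come from different mice and no test was run. With WT SCs in 1 library series, series and group cannot be told apart.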
